A study of Homo sapiens with 6 samples.

Results

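Protocadherins are the largest group of the cadherin superfamily, membrane proteins whose extracellular repeats bind other cells. Here they were the genes whose symbol starts with PCDH, taken from probe sets that carry 1 gene symbol, and 42 of the 18417 genes measured met this rule. They comprised 12 alpha, 18 beta (2 of them pseudogenes), 1 gamma and 11 non-clustered genes. For a gene with several probe sets, the one used was chosen by its mean over all 6 arrays, so that overall brightness selected the row and the comparison of the groups did not. Only PCDHA2 had a choice of this kind, and no member shared its 6 values with another row of the table. The other gamma genes, and rows that carry several symbols, were not analysed here as members.

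The RNA was from H358 cells, a long-established line of non-small cell lung cancer, in 2 groups of 3 arrays each that the titles call biological replicates. One group stably expressed green fluorescent protein (GFP), and the other stably expressed TwistER. Constructs of this kind fuse the transcription factor Twist to the hormone-binding part of the estrogen receptor, which 4-hydroxytamoxifen (4OHT) switches on. Both groups received 100 nM 4OHT for 12 days, and the titles place GFP before and TwistER after epithelial-mesenchymal transition (EMT). TwistER cells that did not receive 4OHT were not included, so the activity of the factor and any other difference between the 2 lines cannot be told apart. The labels give no promoter for either construct, and do not say whether a line is 1 clone. Nothing in them says that replicates were separate cultures, so the spread that p-values measure here may be technical.

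The alpha, beta and gamma genes stand in tandem on chromosome 5. Each alpha and gamma gene has its own first exon and promoter and is spliced to exons shared within its cluster, whereas beta genes stand alone. Neurons switch on different sets of these promoters, which gives cells distinct surface identities, and the choice involves the insulator protein CTCF, cohesin and DNA methylation. Non-clustered protocadherins are scattered single genes that act in cell sorting and migration, and several are known to be silenced by promoter methylation in carcinomas.

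Most clustered promoters carry a short conserved element, and the following stretches show it in members that rose and in members that did not. They come from RefSeq promoter windows (build GRCh38.p14) of 300 bases, 250 before and 50 from the gene's start, which matched 34 of the 42 members. The commonest run of 10 bases in the beta windows was GGTGGCGCTG, in capitals, and the stretches are on the plus strand, 5′ to 3′. The first 6 genes rose in TwistER cells, and the last 4 have the differences closest to or below 0 among the beta genes with the run. Here and below, the label chr5.0 stands for chromosome 5.
PCDHB10 (chr5.0:141192294-141192335): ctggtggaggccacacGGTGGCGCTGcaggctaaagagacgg
PCDHB5 (chr5.0:141135174-141135215): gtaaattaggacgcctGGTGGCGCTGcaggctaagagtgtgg
PCDHB12 (chr5.0:141208638-141208679): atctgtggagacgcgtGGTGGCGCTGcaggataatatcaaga
PCDHB15 (chr5.0:141245309-141245350): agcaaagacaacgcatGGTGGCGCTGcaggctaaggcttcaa
PCDHB7 (chr5.0:141172561-141172602): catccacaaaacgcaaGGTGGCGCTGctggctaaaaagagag
PCDHB9 (chr5.0:141187069-141187110): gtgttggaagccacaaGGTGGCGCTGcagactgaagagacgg
PCDHB2 (chr5.0:141094539-141094580): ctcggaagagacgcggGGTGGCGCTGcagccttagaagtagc
PCDHB4 (chr5.0:141121718-141121759): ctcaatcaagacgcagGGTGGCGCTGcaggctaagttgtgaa
PCDHB13 (chr5.0:141213860-141213901): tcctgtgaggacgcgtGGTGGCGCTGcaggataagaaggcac
PCDHB8 (chr5.0:141177772-141177813): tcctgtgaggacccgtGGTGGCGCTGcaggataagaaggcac

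The run stood in 12 of 14 beta windows, beginning 2 to 84 bases before the gene's start, and in 0.276% of all 35116 windows on either strand. All 6 beta windows of genes that rose held it, and so did 6 of the 8 windows of beta genes that did not pass the test, so these letters are common to both. PCDHB1 and PCDHB14 were the 2 beta genes without it. The alpha windows shared other letters, ATGATGTCGC, in 8 of 10 windows and in 0.0313% of all windows. Both runs contain or end within the letters CGCT, known as the core of the element, as these alpha examples show: the 2 largest alpha differences with a window that held the run, and the lowest.
PCDHA1 (chr5.0:140786079-140786120): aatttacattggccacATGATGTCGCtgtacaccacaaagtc
PCDHA7 (chr5.0:140834165-140834206): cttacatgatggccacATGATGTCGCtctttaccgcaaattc
PCDHA4 (chr5.0:140806972-140807013): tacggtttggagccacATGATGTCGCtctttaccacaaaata

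The promoter of PCDH18, the member with the largest rise, is of another kind, and its whole window is shown with CG pairs in capitals (minus strand).
PCDH18 (chr4:137532445-137532744): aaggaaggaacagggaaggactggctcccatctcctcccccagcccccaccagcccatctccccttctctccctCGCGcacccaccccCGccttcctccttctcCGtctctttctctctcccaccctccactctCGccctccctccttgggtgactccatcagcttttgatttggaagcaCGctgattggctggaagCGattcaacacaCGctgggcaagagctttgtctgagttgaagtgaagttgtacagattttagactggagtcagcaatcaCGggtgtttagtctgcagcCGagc
It held 10 CG pairs and 57.0% G and C. Windows of the 9 non-clustered members on hand had 48.0 to 71.0% G and C, against 33.3 to 46.3% in the 14 beta windows and 33.7 to 40.3% in the 10 alpha windows. PCDH10 and PCDH20 had no window, so PCDH15 and PCDH18 alone stand here for the non-clustered members that rose. The E-box CANNTG, the general letters recognised by Twist and related factors, stood on either strand in 9 of 10 alpha, 9 of 14 beta and 5 of 9 non-clustered windows, and in 68.7% of all windows. It stood in 5 of the 9 windows of members that rose and in 18 of the 25 others. PCDH18 had none in this window. Of its more specific forms, CATATG stood in 1 of the 34 windows and in 3.04% of all windows. The form CATCTG stood in 6, and in 14.7% of all windows. The form CACCTG stood in 3, and in 20.6% of all windows.

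Protocadherin transcripts were higher in TwistER cells for 11 members and lower for none. The 11 were the beta genes PCDHB5, PCDHB7, PCDHB9, PCDHB10, PCDHB12 and PCDHB15, the gamma gene PCDHGB4, and the non-clustered genes PCDH10, PCDH15, PCDH18 and PCDH20. Their rises ranged from 1.45-fold to 3.17-fold. These 11 are 26.2% of the members. At a limma adjusted p under 0.05, 4.72% of all genes rose, 4.11% fell and 8.83% changed in either direction. The family was chosen with earlier results of these data known, so contrasts with all genes describe the members and do not test them. The median log2 difference (TwistER minus GFP, as throughout) was 0.31 over the 42 members and 0.01 over all genes. Above 0 were 36 of the 42 differences, and 9412 of 18417 over all genes. The 17 members with an unadjusted limma p under 0.05 include these 11, and 3969 of the 18417 genes had such a p. Without TwistER replicate 2 the number that rose was 7, all among the 11, and without GFP replicate 1, an array unlike the remaining GFP pair, 12 rose, 10 of the 11 among them. The share of all genes that rose was 2.57% in the first of these fits and 6.97% in the second, and that of genes that fell 1.94% and 8.09%, so that falls outnumbered rises without GFP replicate 1.

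The 3 TwistER arrays lay above all 3 GFP arrays in 20 members (47.6%), where 13.9% of all genes have this order, and below them in 0, where 14.5% do. In each of the 11 members that rose the groups were separate, by gaps of 0.22 to 1.16 between the lowest TwistER and the highest GFP value. Their calls rest on these same values, so the separation describes the 11 and adds no further support. RMA, which made these values, summarises probes on a log2 scale, so 1 unit is a 2-fold step. Levels of different genes come from different probes and are not compared.

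**Figure D1:**
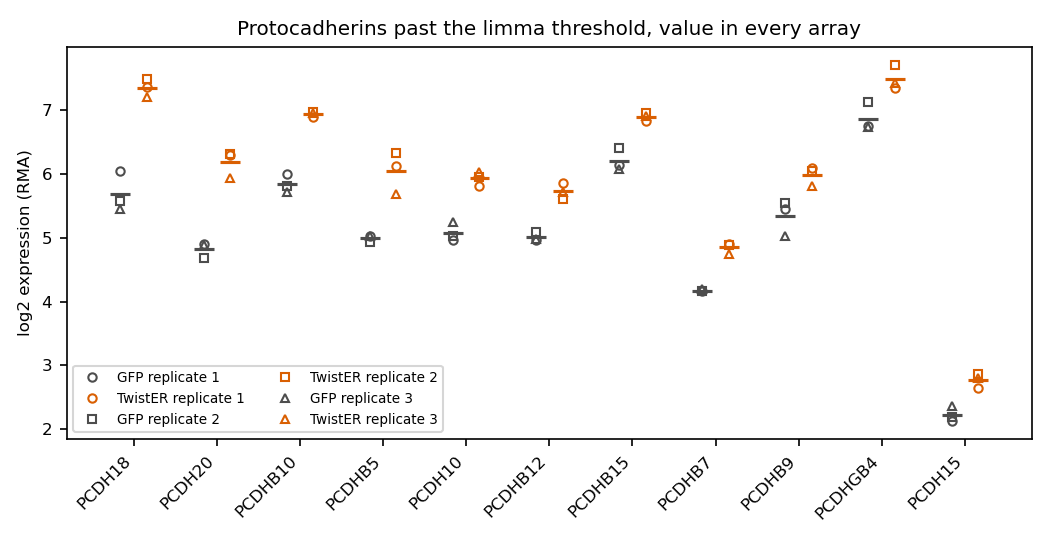
Log2 expression in each array (y axis) for the 11 protocadherins past the threshold (x axis, ordered by size of the difference). Grey symbols are GFP and orange symbols TwistER, with the symbol's shape giving the replicate and the short line the mean of 3 arrays; in every gene all TwistER values lie above all GFP values, by 0.22 to 1.16.

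The arrays matched the labelled EMT at E-cadherin and most other epithelial markers, and only in part at VIM and CDH2. GFP arrays read 9.53 to 10.38 for CDH1 and TwistER arrays 4.93 to 5.30, EPCAM fell as well, and 4 of 5 epithelial markers fell. VIM rose by 0.59 ± 0.14 (SE) and CDH2 differed by 0.36 ± 0.14, which did not pass. TWIST1 read 6.21, 6.20 and 6.62 in GFP and 6.30, 6.67 and 6.84 in TwistER, with overlapping groups, and also missed the threshold (0.27 ± 0.17, limma adjusted p = 0.457). Whether its probe set reads the expressed construct was not tested, so these arrays do not show the construct. Of 11 neuronal markers 0 rose and 0 fell (median difference -0.03), and their mean over the list was 4.43 to 4.50 in GFP and 4.43 to 4.47 in TwistER arrays, with 5 of 11 in the range of the dimmest 25% of all genes. Of 5 fibroblast markers COL1A1 rose and LUM fell, the list's mean being 4.92 to 5.05 in GFP and 4.73 to 4.83 in TwistER, and the part of other cells in the results was not tested. In such bulk RNA, more cells that express a gene and more transcript per cell cannot be told apart.

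Among the non-clustered genes, 4 of 11 rose, 0 fell and 7 did not pass. All 11 differences were above 0, with a median of 0.29. PCDH18, a protocadherin that binds the signalling adaptor DAB1, read 6.04, 5.57 and 5.45 in GFP cells and 7.37, 7.48 and 7.20 in TwistER. Every TwistER value was at least 1.16 above the highest GFP value, which was replicate 1. The difference was 1.66 ± 0.17 (SE), a 3.17-fold rise with a limma adjusted p of 0.000536.

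PCDH20, a gene known to be methylated and silent in part of non-small cell lung cancers, read 4.90, 4.68 and 4.89 in GFP and 6.29, 6.32 and 5.93 in TwistER. The groups were clearly separate, with TwistER replicate 3 the lowest of its group. It rose 2.56-fold (1.36 ± 0.14, limma adjusted p = 0.000601). PCDH10, also known as a target of methylation in carcinomas, read 4.96, 5.02 and 5.25 in GFP and 5.81, 5.95 and 6.03 in TwistER. Its spread within each group was small beside the difference, a 1.81-fold rise (0.85 ± 0.12, limma adjusted p = 0.0034).

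PCDH15, a component of the tip links of sensory hair cells, rose 1.45-fold (0.54 ± 0.12, limma adjusted p = 0.0268) at a level in the range of the dimmest 25% of all genes. It read 2.13, 2.19 and 2.37 in GFP and 2.64, 2.87 and 2.80 in TwistER. Its call was lost without GFP replicate 2 or any 1 of the TwistER arrays, at limma adjusted p-values up to 0.127. PCDH17, which like PCDH10 acts in neural circuits, lay just outside the threshold. Its values were 3.57, 3.82 and 3.95 in GFP and 4.20, 4.40 and 4.93 in TwistER, and the groups did not overlap, but TwistER replicate 3 stood above the other 2. The difference, 0.72 ± 0.19, had a 95% interval of 0.28 to 1.17 and reached a limma adjusted p of 0.0563. It passed with array weights (0.031) and with the replicate number as a block (0.0181), but in none of the 6 fits that left out 1 array (0.0535 to 0.139).

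The other 6 non-clustered genes had differences of 0.02 to 0.29 and none passed. PCDH12, an endothelial protocadherin, read 3.51, 4.00 and 3.97 in GFP and 4.04, 4.17 and 4.16 in TwistER, separate by less than the gap between GFP replicate 1 and its group (0.29 ± 0.15, limma adjusted p = 0.313). PCDH7, which binds the phosphatase inhibitor SET, differed by 0.17 ± 0.12, with a 95% interval of -0.11 to 0.45. PCDH9 had overlapping groups, with TwistER replicate 1 at 5.14 and replicate 3 at 4.40 (0.15 ± 0.20). PCDH8, an activity-regulated protocadherin of synapses, differed by 0.10 ± 0.11 and PCDH19, a gene mutated in an epilepsy of females, by 0.04 ± 0.13.

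PCDH1, which is expressed in airway epithelium, showed the smallest difference of this class. It read 4.78, 5.0 and 5.21 in GFP and 4.86, 5.05 and 5.16 in TwistER, so the groups covered the same range. The difference was 0.02 ± 0.14, with a 95% interval of -0.30 to 0.35, and its sign turned under quantile, median and loess rescaling, under array weights and without GFP replicate 1 or TwistER replicate 3. In 5 of the 11, PCDH8, PCDH12, PCDH15, PCDH17 and PCDH19, the level lay in the range of the dimmest 25% of all genes. Leaving out the genes in that range raised the class median from 0.29 to 0.51.

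**Figure D2:**
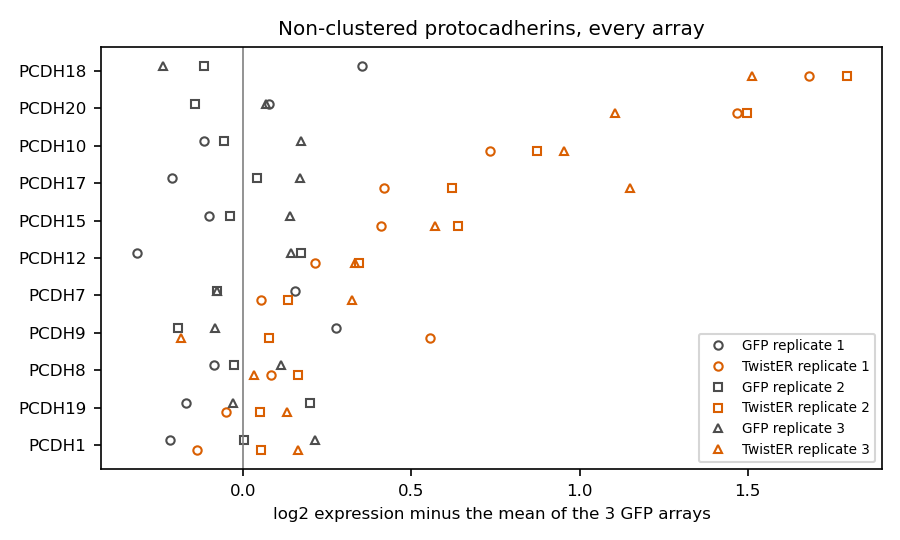
Log2 expression minus the mean of the 3 GFP arrays (x axis) for each of the 11 non-clustered protocadherins (y axis, ordered by difference). Grey symbols are GFP and orange symbols TwistER, with shapes for the replicate; PCDH18, PCDH20 and PCDH10 show TwistER arrays far to the right of GFP, and the 6 lowest rows lie within 0.6 of the GFP mean.

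Among the beta genes, 6 of 18 rose and 0 fell, and the other 12 missed the threshold. The median difference was 0.47. PCDHB10 read 6.0, 5.81 and 5.72 in GFP and 6.89, 6.97 and 6.96 in TwistER. The TwistER arrays agreed to within 0.1, and the rise was 2.14-fold (1.10 ± 0.11, limma adjusted p = 0.000626). PCDHB5 read 5.03, 4.94 and 5.03 in GFP and 6.13, 6.33 and 5.68 in TwistER. Here the GFP arrays were close together and TwistER replicate 3 was the lowest of its group, and the rise was 2.07-fold (1.05 ± 0.17, limma adjusted p = 0.00539).

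PCDHB12 read 4.97, 5.09 and 4.98 in GFP against 5.86, 5.61 and 5.72 in TwistER, a 1.64-fold rise (0.72 ± 0.11, limma adjusted p = 0.00523). PCDHB15 read 6.14, 6.40 and 6.08 against 6.83, 6.95 and 6.91, a 1.61-fold rise (0.69 ± 0.12, limma adjusted p = 0.00848) that did not pass without TwistER replicate 2 (0.0515). PCDHB7 read 4.16, 4.16 and 4.19 against 4.91, 4.89 and 4.75, a 1.60-fold rise (0.68 ± 0.10, limma adjusted p = 0.00452). In all 3 genes the distance between the groups was larger than the range within either. PCDHB9 lay just inside the threshold: it read 5.45, 5.55 and 5.02 in GFP and 6.09, 6.05 and 5.81 in TwistER (0.64 ± 0.16, limma adjusted p = 0.0434). It did not pass without GFP replicate 3 or without any 1 of the TwistER arrays (up to 0.161), nor under the 3 rescalings (0.0537 to 0.0624).

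The other beta genes ranged from -0.20 to 0.52. PCDHB16 had separate groups, 6.61, 7.03 and 7.12 in GFP and 7.42, 7.50 and 7.40 in TwistER, with GFP replicate 1 well below its group. Its difference of 0.52 ± 0.15 missed the threshold (limma adjusted p = 0.0676), and leaving out that array gave 0.36, which passed (0.038). PCDHB6 also passed when it was left out, at 0.61 (limma adjusted p = 0.0321), against 0.47 ± 0.17 from all 6 arrays (0.129). PCDHB3 read 4.81 in GFP replicate 1 but 5.92 and 5.77 in the other GFP arrays, near the 5.96 to 6.07 of TwistER.

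PCDHB4 showed the opposite pattern. It read 4.16 in GFP replicate 1 and 3.26 and 3.15 in the others, against 3.70, 3.73 and 3.18 in TwistER, a difference of 0.01 ± 0.27 with a 95% interval of -0.60 to 0.63. PCDHB8 (-0.20 ± 0.19), PCDHB1 (-0.08 ± 0.21) and PCDHB13 (-0.04 ± 0.14) were the 3 beta genes with a difference below 0, and their groups overlapped. The pseudogenes PCDHB17P and PCDHB18P differed by 0.47 ± 0.20 and 0.08 ± 0.17, and neither passed. Beta genes are close in sequence, so probes may read more than 1 of them, and how far they do was not tested.

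PCDHGB4, a member of the gamma cluster, was the only gamma gene with a row of its own. It read 6.75, 7.12 and 6.73 in GFP and 7.34, 7.71 and 7.43 in TwistER, with replicate 2 the highest in each group. The groups were separate by 0.22, and the rise was 1.54-fold (0.63 ± 0.15, limma adjusted p = 0.0369). That call held without GFP replicate 2 (0.0272) and was lost without any 1 of the other 5 arrays, at limma adjusted p-values of 0.052 to 0.151, and under median centring (0.0502).

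None of the 12 alpha genes passed the test, in either direction, where 8.83% of all genes did. Differences ranged from -0.08 to 0.36 with a median of 0.15, and 1 gene, PCDHA13, had an unadjusted p under 0.05. PCDHA13 read 5.24, 5.31 and 5.47 in GFP and 5.87, 5.78 and 5.46 in TwistER, where replicate 3 fell within the GFP range (0.36 ± 0.14, limma adjusted p = 0.167). PCDHA1 (0.34 ± 0.17) and PCDHA7 (0.33 ± 0.15) followed, with limma adjusted p-values of 0.315 and 0.252.

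PCDHA2, the member with 2 probe sets, gave similar values in both: 0.24 ± 0.12 in the brighter and 0.26 ± 0.14 in the other. The 95% intervals of the 12 alpha differences, each taken singly, reached no further than -0.50 and 0.73. They concern the values of these probe sets and do not bound the change of any single alpha transcript. TwistER lay above GFP without overlap in 4 alpha genes, PCDHA2, PCDHA3, PCDHA5 and PCDHA7. That is 33.3% of the class, where 13.9% of all genes have this order. The class median depended on GFP replicate 1, and was 0.06 without it. Alpha transcripts share exons, so the 12 rows may in part read the same transcripts, and how far they do was not tested.

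The class medians were also taken per array. Taking each gene relative to its mean in the GFP arrays, the beta class stood at 0.12, -0.01 and -0.09 in GFP and at 0.55, 0.52 and 0.41 in TwistER. The non-clustered class stood at -0.10, -0.04 and 0.11 in GFP and at 0.41, 0.34 and 0.33 in TwistER, again separate. For the alpha class the values were -0.14, 0.02 and 0.13 in GFP and 0.10, 0.20 and 0.18 in TwistER, which overlap. Over all genes they lay between -0.02 and 0.03. Whether the classes differ from each other was not tested.

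**Figure D3:**
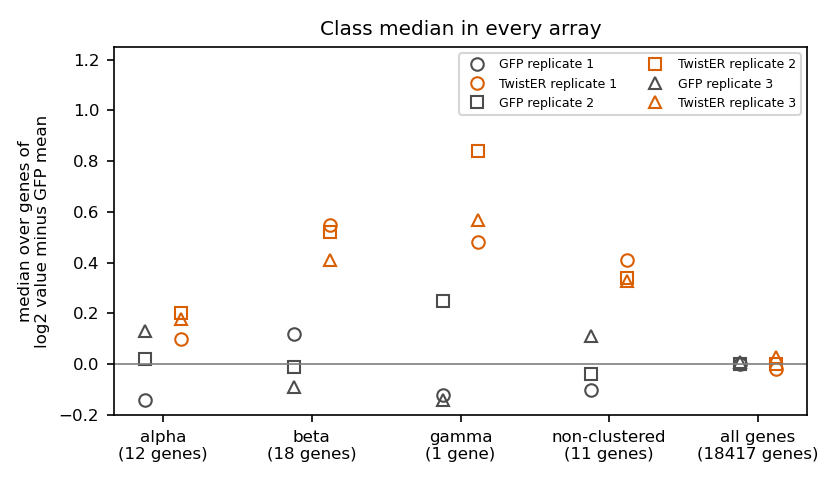
Median over the genes of a class of the log2 value minus that gene's GFP mean (y axis), for each array, in the 4 protocadherin classes and over all 18417 genes (x axis). Grey symbols are GFP and orange symbols TwistER, with shapes for the replicate; the TwistER arrays lie apart from GFP in the beta class (0.41 to 0.55) and overlap GFP in the alpha class.

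Along chromosome 5 the genes that rose lay at the beta and gamma end. From PCDHA1 to PCDHB4, 0 of 16 members rose and the median difference was 0.10. Over all genes 4.72% rose, so a count of 0 among 16 is near that share and does not mark this stretch. From PCDHB5 to PCDHGB4, 7 of 15 rose and the median was 0.52, a division made after the values were seen. Genes that rose and genes that did not pass alternate within that stretch. PCDHB7 rose while its neighbour PCDHB8 differed by -0.20, and PCDHB12 rose while PCDHB13 differed by -0.04.

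**Figure D4:**
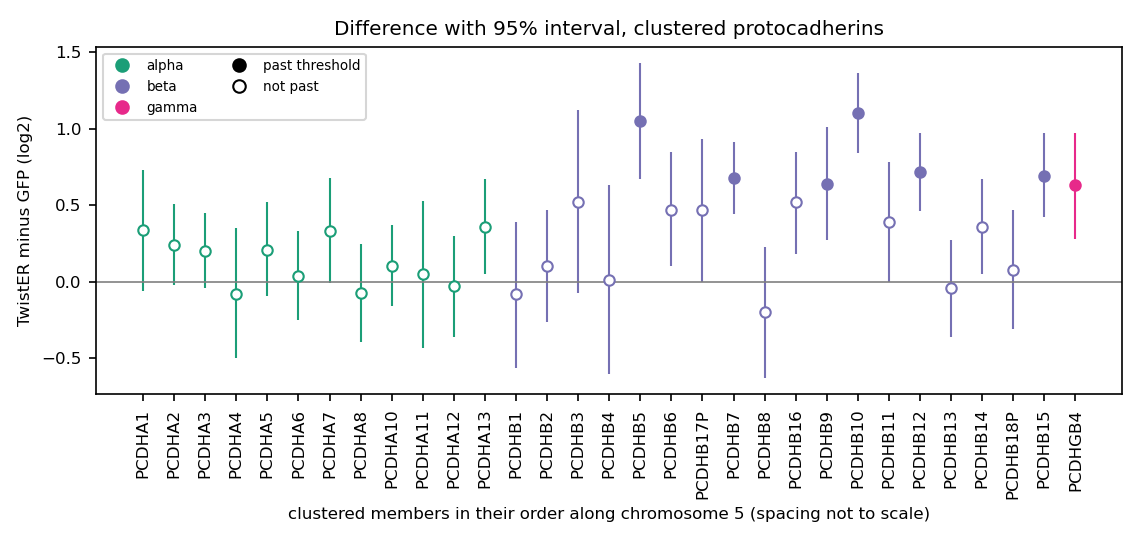
TwistER minus GFP difference in log2 units with its 95% interval (y axis) for the 31 clustered members in their order along chromosome 5 (x axis, spacing not to scale). Green is alpha, purple beta and pink gamma; filled points passed the limma threshold and open points did not, and all 7 filled points lie from PCDHB5 onward, with PCDHB10 the highest at 1.10.

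Of 23 genes that flank the clusters, 0 rose and 1 fell, and the median difference was 0.07. The 1 was DIAPH1, an actin-nucleating formin, at -0.53 ± 0.11 (limma adjusted p = 0.0217). TAF7 and SLC25A2, which lie between the beta and gamma clusters, differed by 0.08 and 0.23 and did not pass.

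Known regulators and partners of protocadherins gave no call in their 3 lists with all 6 arrays. The 23 chromatin regulators of the clusters include CTCF, cohesin subunits, DNA methyltransferases and the silencing protein SMCHD1. Of these 0 rose and 0 fell, with differences of -0.42 (DNMT3B) to 0.20 (NIPBL) and a median of -0.13. The list's mean was 8.76 to 8.86 in GFP arrays and 8.64 to 8.73 in TwistER arrays, so it lay slightly lower in TwistER without overlap. CTCF differed by -0.01 ± 0.13 and SMCHD1 by -0.13 ± 0.12. Of 7 proteases that cleave protocadherins, such as ADAM10 and the gamma-secretase subunits, 0 passed, and neither did any of 23 intracellular partners, such as FYN and the WAVE complex. With 3 arrays a group, a p that misses the threshold does not show equal levels.

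Of 23 other genes of the cadherin superfamily and its FAT4 pathway, 1 rose and 2 fell (median -0.00). FAT4, a giant atypical cadherin, read 7.58, 7.68 and 7.63 in GFP and 9.02, 8.94 and 8.79 in TwistER, a 2.44-fold rise (1.29 ± 0.11, limma adjusted p = 0.000225). CELSR1, a planar polarity cadherin, fell 2.12-fold (-1.09 ± 0.19, limma adjusted p = 0.0087), and FJX1, the human homologue of Four-jointed, which modifies cadherins of the FAT pathway, fell 1.53-fold (-0.62 ± 0.15, limma adjusted p = 0.0334). Over these 5 lists, 99 genes in all, 4 passed the threshold with all 6 arrays (4.04%, where 8.83% of all genes passed) and 9 without GFP replicate 1 (9.09%, where 15.1% of all genes passed). Without any 1 of the other 5 arrays 2 passed, FAT4 and CELSR1. The falls of DIAPH1 and FJX1 were lost in each of those 5 fits, at limma adjusted p-values up to 0.0984 and 0.137.

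How firmly each protocadherin call stood depended on the array left out. Of the 11, 7 passed in each of the 6 fits that left out 1 array: PCDH18, PCDH20, PCDH10, PCDHB10, PCDHB5, PCDHB7 and PCDHB12. PCDHB15 was lost in 1 fit, and PCDH15, PCDHB9 and PCDHGB4 in 4, 4 and 5.

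**Figure D5:**
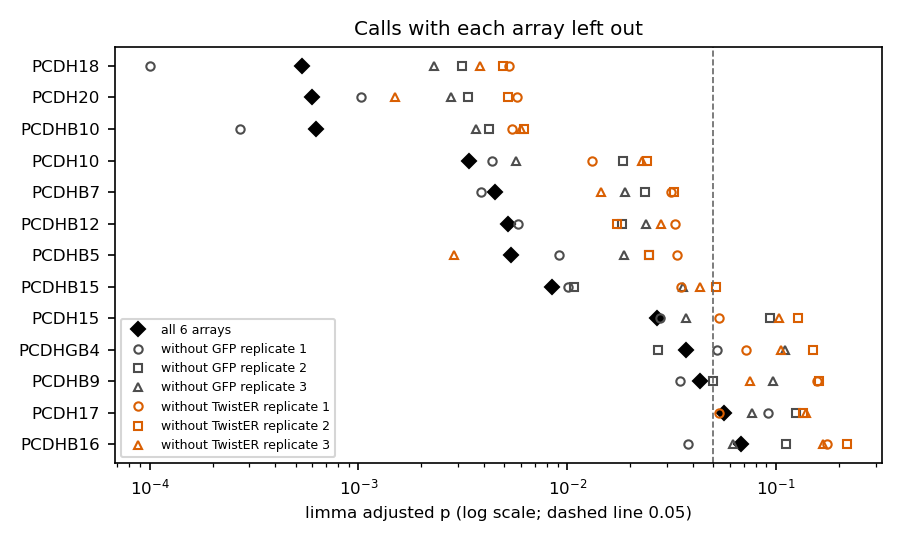
Limma adjusted p on a log axis (x axis) for the 13 protocadherins with the lowest values (y axis), with all 6 arrays (black diamonds) and with each array left out (grey for a GFP array, orange for a TwistER array, shapes for the replicate). The dashed line is 0.05; for 7 genes every point lies to its left.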

How the data were processed

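Arrays were labelled and hybridised at a core facility, as the labels' protocols state. Each deposited value is the log2 expression of a probe set, which the authors computed with RMA, per the submitters' processing notes. No version or setting of it was found in the labels. RMA equalises the distribution across arrays, so a shift of the whole transcriptome would not show, and it compresses differences of dim genes. Of 33297 probe sets, 19460 had 1 gene symbol in the platform annotation, 1754 had several and 12083 had none. The first kind gave 18417 genes, each by its brightest probe set.

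Differences were fitted with limma 3.58.1 in R 4.3.3 over all genes, 2-sided and without covariates, with Benjamini-Hochberg adjustment and a threshold of 0.05. A gene rose or fell where it passed. The scripts were tested on simulated data with known shifts in 100 genes of each size. Of genes shifted by 1 log2 unit 76% passed, and of those shifted by 2 units 96% passed. Among the unshifted genes 4 passed. Class medians carry no test. Members and lists were chosen with earlier results of these data known. Named were members past the threshold, all non-clustered members, the 4 largest differences of each cluster, and list members past the threshold; further members serve to account for the class. Alternatives were 3 rescalings, a filter at the 25 percentile of brightness, averaged or unreduced probe sets, other variance models, array weights, thresholds of 0.01 and 0.10, a block on the replicate number and each array left out. Python 3.11.15, pandas 2.3.3 and matplotlib 3.10.9 were used for tables and plots. GFP replicate 1 correlated with the other GFP arrays at 0.982 over genes, against 0.996 between those 2.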

Additional observations from a re-analysis of the deposited data

How the results depend on the processing

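No alternative gave a protocadherin that fell. The number that rose was 7 to 12 with an array left out, the lowest without TwistER replicate 2, and 8 to 15 under the other alternatives. Over all genes 2.57 to 6.97% rose with an array left out, and the share is not given here for the other alternatives. With the replicate block it was 12, the 11 and PCDH17 (limma adjusted p = 0.0181). Both groups share replicate numbers. Deviations of same-numbered arrays correlated at 0.139, 0.0154 and 0.157, and those of differently numbered arrays at -0.16 to 0.04. The labels do not say that a number marks a shared day or culture, so the main fit did not pair the arrays. The median of the alpha class was 0.056 to 0.233 and of the beta class 0.346 to 0.528 with an array left out, and with array weights they were 0.069 and 0.37, against 0.153 and 0.47 without them. The non-clustered median was 0.513 among genes above the 25 percentile, which removes 5 of its 11 genes. Of the 99 listed partner and neighbour genes, 2 to 9 passed with an array left out, in fits where 4.51 to 15.1% of all genes passed. With array weights, which gave GFP replicate 1 the lowest weight (0.194), 12 of them passed. The share of all genes that passed with these weights is not given here, so the 12 cannot be set against it. The cause was not tested. The sign turned only in genes far from the threshold. PCDH1 gave -0.000392, -0.00549 and -0.00766 under quantile, median and loess rescaling, -0.0734 with array weights, and -0.085 to 0.132 with an array left out. PCDH19 gave -0.0541 with array weights and -0.0396 to 0.144 with an array left out, and PCDH9 -0.0516 to 0.317. The 22 protocadherins past the threshold, non-clustered or among the 4 largest differences of a cluster had 303 alternatives. Of these, 273 kept direction and side of the threshold, 18 lost a call, 2 gained one and 10 turned sign. The other members were not counted here. Among them PCDHB6, PCDHB11 and PCDHB16 passed with array weights (limma adjusted p = 0.00644, 0.0165 and 0.0202). PCDHB6 and PCDHB16 also passed without GFP replicate 1, and PCDHB4 ranged from -0.18 to 0.33 with an array left out. With 3 arrays a group, differences below about 0.5 mostly did not pass.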

Other observations

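Within the beta class, CG pairs were fewer in the promoter windows of genes that rose, with overlapping ranges. The 6 windows of PCDHB5, PCDHB7, PCDHB9, PCDHB10, PCDHB12 and PCDHB15 held 5 to 7 each (median 6.0), and the 8 windows of beta genes that did not pass held 6 to 12 (median 9.5). G and C made up 33.3 to 42.0% of the first and 35.7 to 46.3% of the second. The count does not follow the rise across classes. The 10 alpha windows held 3 to 9 CG pairs (median 6.0) in a class where 0 of 12 genes rose, and PCDHGB4 rose with 13 in its window. This was noticed after the values were seen, has no test, and concerns letters of the reference sequence, not methylation.

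The 3 rows that carry several protocadherin symbols, left out of the members, gave differences of 0.07 ± 0.13, 0.55 ± 0.16 and 0.48 ± 0.17 (SE), the first from a row with 15 symbols. None passed over all rows of the table (limma adjusted p = 0.881, 0.154 and 0.231).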
